A study of Mus musculus with 4 samples.

Results

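Intercalated cells are the acid- and base-secreting cells of the kidney's collecting duct and connecting tubule, and 10 genes of their transport machinery were followed here, out of 32285 genes listed in the count tables. The 10 genes were taken by symbol. Atp6v1b1, Atp6v1g3, Atp6v1c2, Atp6v0a4 and Atp6v0d2 encode subunits of the vacuolar proton pump (V-ATPase), Slc4a1, Slc26a4 and Slc4a9 encode anion exchangers, and Foxi1 and Hmx2 encode transcription factors. Each symbol matched 1 identifier: ENSMUSG00000006269 (Atp6v1b1), ENSMUSG00000026394 (Atp6v1g3), ENSMUSG00000020566 (Atp6v1c2), ENSMUSG00000038600 (Atp6v0a4), ENSMUSG00000028238 (Atp6v0d2), ENSMUSG00000006574 (Slc4a1), ENSMUSG00000020651 (Slc26a4), ENSMUSG00000024485 (Slc4a9), ENSMUSG00000047861 (Foxi1) and ENSMUSG00000050100 (Hmx2).

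As background, the V-ATPase is a rotary pump with a cytosolic V1 sector that splits ATP and a membrane V0 sector that carries protons. Several of its subunits exist in a form made in most cells and in a form made in few tissues, kidney among them. Type A intercalated cells place the pump on the luminal side and secrete acid, and they return bicarbonate to the blood through AE1, the product of Slc4a1. Type B intercalated cells secrete bicarbonate in exchange for chloride through pendrin, the product of Slc26a4. Foxi1, a forkhead factor, is needed for intercalated cells to form.

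The kidneys came from male C3H mice aged 18 weeks, and each condition had 1 library of whole-kidney cells (10x Chromium), 4 libraries in all. WT-ND and WT-HFD mice were wild type for Slc5a2, the gene of the glucose cotransporter SGLT2, and SP-ND and SP-HFD mice (Sweet Pee, titled MT in the labels) were homozygous for a missense mutation of that gene. HFD mice had eaten a high-fat diet (60% of calories from fat) for 8 weeks from 10 weeks of age, and ND mice a normal diet. The labels do not say how many mice each library holds, so no replicate stands behind any difference between libraries and none was tested. Levels are given as CPM, the UMIs (unique transcript molecules) of a gene per 1000000 UMIs of the group of cells, and every interval is a 95% interval that covers counting error only. The libraries counted transcript ends, so a CPM does not grow with transcript length.

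The libraries held 93142028 and 115117649 UMIs in WT-ND and WT-HFD and 111617794 and 90728590 UMIs in SP-ND and SP-HFD. Of these libraries, in the same order, 9924, 8947, 6389 and 7020 cells were kept from 16385, 15000, 14046 and 13229 barcodes. In proximal tubule cells the level of Slc5a2 was 296 and 233 CPM in the WT-ND and WT-HFD libraries against 41.7 and 86.6 CPM in the SP-ND and SP-HFD libraries. A pair of libraries shared 54 to 77 barcodes. The WT-HFD library stood apart from the others. It supplied 817 of the 853 cells of a cluster that could not be named, in which Atp6v1g3 reached 675 CPM in its WT-HFD cells, against 63.5 CPM in WT-HFD proximal tubule cells. Of all Atp6v1g3 UMIs in kept cells, 65.4% lay in intercalated clusters in WT-HFD, against 90.4% to 94.5% in the other libraries. For Slc4a1 the share was 75.0% in WT-HFD and 93.4% to 97.6% in the other libraries. Values for each library are therefore given beside pooled ones for many results, but most levels outside intercalated cells are pooled only.

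Cell classes were named from marker genes, and each name stands for cells like that class. Clusters that could not be named held 9638 of the kept cells. These cells are part of the other kept cells wherever intercalated cells are set against the rest. The intercalated clusters held 1759 cells, 5.45% of the 32280 kept, and were named without use of the 10 genes. Clustering these cells again gave 9 sub-clusters. The sub-clusters named type A held 472 cells and those named type B 328 cells. Slc4a1 and Slc26a4 were among the markers that named the types, so their contrast between types is a description of the names, whereas the other 8 genes neither clustered nor named the cells. The remaining 959 intercalated cells fell in sub-clusters led by genes of other cells, such as S100g and Slc12a3 of the distal convoluted tubule, Aqp2 of principal cells, immunoglobulin genes and haemoglobin genes, and they were left without a type.

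Slc4a1 and Slc26a4 UMIs occurred together in 24 of 472 type A cells (5.08%, interval 3.28 to 7.47) and in 13 of 328 type B cells (3.96%, 2.13 to 6.68). Among the intercalated cells without a type, 115 of 959 (12.0%, 10.0 to 14.2) held both exchangers. The sub-cluster led by S100g and Slc12a3 had the largest such share of the 9 sub-clusters, 76 of its 359 cells (21.2%). Its median depth of 14434 UMIs was above that of either type, and whether these cells are mixtures was not tested.

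Upstream sequences of 3 of the genes are shown, because Foxi1 is a forkhead factor and forkhead proteins bind words such as TGTTTAC and TATTTAC. RefSeq promoters of build GRCm38.p6 were searched for these words on both strands over the 250 bases before the gene start, and an entry was matched for 7 of the 10 genes. Atp6v1b1 is shown for the same-strand TGTTTAC at bases 98 to 92 before its start, at chr6:83742767-83743016 on the plus strand. Hmx2 is shown for the opposite-strand TATTTAC, which reads GTAAATA here, at bases 71 to 65 before the start of the first of its 2 entries, at chr7:131548507-131548756 on the plus strand. Slc26a4, at chr12:31559985-31560234 on the minus strand, held neither word and is shown beside them as the gene that marks type B cells. Capitals mark the words.
Atp6v1b1: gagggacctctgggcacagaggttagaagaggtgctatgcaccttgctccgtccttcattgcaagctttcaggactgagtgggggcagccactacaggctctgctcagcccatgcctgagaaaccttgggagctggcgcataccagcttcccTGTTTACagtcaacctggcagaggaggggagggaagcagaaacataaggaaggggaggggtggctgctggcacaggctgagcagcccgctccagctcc
Hmx2: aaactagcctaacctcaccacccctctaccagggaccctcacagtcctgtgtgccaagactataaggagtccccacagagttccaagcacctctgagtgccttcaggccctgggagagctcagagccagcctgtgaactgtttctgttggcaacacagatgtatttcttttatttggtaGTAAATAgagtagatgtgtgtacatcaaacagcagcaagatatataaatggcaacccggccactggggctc
Slc26a4: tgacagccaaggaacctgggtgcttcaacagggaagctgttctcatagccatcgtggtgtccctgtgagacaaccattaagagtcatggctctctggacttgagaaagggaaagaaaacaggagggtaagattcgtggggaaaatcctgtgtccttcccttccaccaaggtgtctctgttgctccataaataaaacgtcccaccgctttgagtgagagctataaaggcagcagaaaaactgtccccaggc
Neither word was found in the windows of Atp6v1g3, Atp6v1c2, Atp6v0a4 and Foxi1, or in the second window of Hmx2. TGTTTAC occurs in 3.17% and TATTTAC in 2.73% of the 32851 RefSeq promoters searched in the same way, and either word in 5.76%. A match is a run of letters and not a binding site.

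All 10 genes were far higher in intercalated cells than in the other kept cells. Cells making up 5.45% of the total held from 39.1% (Atp6v0a4) to 89.7% (Slc4a1) of each gene's UMIs. These cells were also deeper, so their share of all UMIs was above their share of cells. Their median depth was 7542, 6387.5, 13074 and 10464.5 UMIs in WT-ND and WT-HFD, then SP-ND and SP-HFD. Over all kept cells it was 3462, 4525, 5270 and 4525 UMIs. With the 4 libraries pooled, all 10 passed a 2-fold difference, read against 7.76% of the 16052 genes with enough UMIs that were at least 2-fold higher (called here as a log2 ratio of at least 1 with at least 50 UMIs in both groups together). The median log2 ratio of the 10 genes was 5.93, beside 0.01 over all genes tested. The 10 genes were listed as genes of intercalated cells. They and the wider lists below were chosen with earlier results of these data known. These counts therefore describe the lists and test nothing.

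The pump subunits differed in how far they were restricted to intercalated cells. Atp6v1g3, a G subunit of the pump's peripheral stalk, was at 5069 CPM in intercalated and 91.7 CPM in other cells, a log2 ratio of 5.79 (5.77 to 5.81). By library the ratio was 6.70 for WT-ND, 7.13 for SP-ND and 7.22 for SP-HFD but 4.51 for WT-HFD, where the level outside intercalated clusters was 207 CPM. The cells of unnamed clusters, which count among the other cells, were at 281 CPM of Atp6v1g3 with the libraries pooled. Atp6v0d2, a d subunit that links the rotor to the central stalk, was at 661 against 10.8 CPM, a log2 ratio of 5.94 (5.87 to 6.01). Atp6v1c2, a C subunit that joins V1 to V0, was at 540 against 15.3 CPM, a log2 ratio of 5.15 (5.09 to 5.21). Atp6v1c2 was also read in the distal convoluted tubule, at 31.4 CPM (28.9 to 34.1), and in the thick ascending limb, at 26.3 CPM, against 5.18 CPM (2.48 to 9.52) in T or NK cells. In mesangial, mural cells or fibroblasts Atp6v1g3 was at 324 CPM, Atp6v0d2 at 35.3 CPM and Atp6v1c2 at 30.4 CPM. For Atp6v1g3 and Atp6v0d2 this was the highest level in a named class outside intercalated clusters, against 69.4 and 10.9 CPM in T or NK cells. These are pooled levels, and this mesangial, mural or fibroblast class was not read by library. Its larger cluster held 271, 413, 236 and 204 cells in WT-ND and WT-HFD, then SP-ND and SP-HFD. Without integration the cluster of that name held 234, 132, 235 and 185 cells in the same order.

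Atp6v1b1, a B subunit of the ATP-splitting head, was at 518 CPM in intercalated and 37.1 CPM in other cells (log2 ratio 3.80, 3.76 to 3.85). Outside intercalated cells it was at 126 CPM in connecting tubule or principal cells, 96.1 CPM in the distal convoluted tubule and 79.0 CPM in the thick ascending limb. In the proximal tubule it was at 2.71 CPM, below the 6.73 CPM in T or NK cells, a class that should lack it. Atp6v0a4, the a subunit whose loss causes renal tubular acidosis in people, was at 760 CPM in intercalated and 111 CPM in other cells (log2 ratio 2.77, 2.74 to 2.80). It stood apart from the other subunits in the proximal tubule, with 123 CPM there, 168 CPM in the thick ascending limb, 173 CPM in the distal convoluted tubule and 25.9 CPM in T or NK cells. In the proximal tubule the 4 libraries read 102, 152, 94.3 and 170 CPM of Atp6v0a4 in WT-ND and WT-HFD, then SP-ND and SP-HFD, so both HFD libraries lay above both ND libraries. This comparison depends on the integrated clustering and on a CPM total that includes mitochondrial UMIs. Without integration the cluster named proximal tubule held 2017, 15, 908 and 13 cells in the same order.

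The exchangers and factors were low outside intercalated clusters, with the highest levels in a named class in mesangial, mural cells or fibroblasts for Slc4a1 (12.3 CPM) and Slc26a4 (33.4 CPM). That class was read only with the libraries pooled. In the cluster mostly of WT-HFD, Slc4a1 was at 43.7 CPM and Slc26a4 at 47.6 CPM. Foxi1 was at 340 CPM in intercalated cells, 6.78 CPM in connecting tubule or principal cells and 7.25 CPM in T or NK cells. Hmx2, a homeobox factor, was at 269 CPM in intercalated cells and 6.73 CPM in T or NK cells. Slc26a4 was at 718 CPM in intercalated cells, 16.7 CPM in connecting tubule or principal cells and 17.6 CPM in T or NK cells, and Slc4a9, which encodes AE4, an exchanger of the blood-facing side, was at 270, 10.4 and 4.66 CPM in the same classes. Slc4a1 was at 432 CPM in intercalated, 8.69 CPM in connecting tubule or principal and 2.59 CPM in T or NK cells. The part of free RNA in the droplets in these levels outside intercalated cells was not tested.

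**Figure D1:**
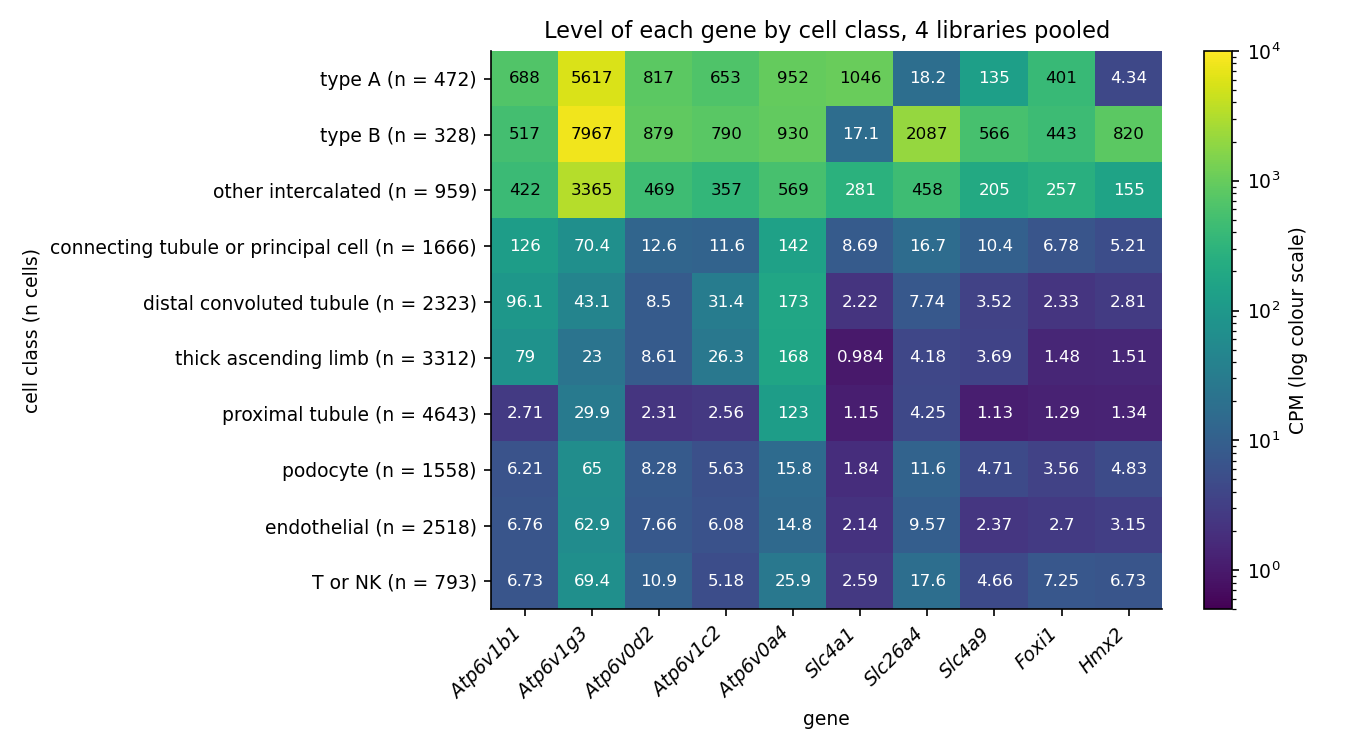
Each cell gives the pooled CPM of a gene (columns) in a class of cells (rows, with the number of cells) over the 4 libraries, and the colour follows a log scale. The top 3 rows are intercalated cells, Atp6v0a4 is at 123 CPM or more in every tubule class shown, and Atp6v1b1 falls from 79.0 CPM in the thick ascending limb to 2.71 CPM in the proximal tubule.

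Thinning each cell to 1000 UMIs, with shallower cells left out, set the classes on 1 depth. Atp6v1g3 was then seen in 96.6% of 471 type A and 95.1% of 328 type B cells, against 8.00% of 675 T or NK cells. Foxi1 was seen in 37.4% of type A, 32.6% of type B and 1.04% of T or NK cells. Atp6v1b1 was seen in 49.9% of type A and 42.7% of type B cells, in 12.5% of connecting tubule or principal cells and in 0.74% of T or NK cells. Before thinning the median depth was 9744 UMIs in type A, 11688 in type B and 2255 in T or NK cells, and Atp6v1g3 was seen in 469 of 472 type A cells and in all 328 type B cells.

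The form of each paired pump subunit was compared between classes as the share of the kidney-type gene among the UMIs of the pair. In type A cells this share was 91.1% for Atp6v1b1 with Atp6v1b2, 92.9% for Atp6v1c2 with Atp6v1c1, 95.3% for Atp6v1g3 with Atp6v1g1, 97.8% for Atp6v0a4 with Atp6v0a1 and 94.3% for Atp6v0d2 with Atp6v0d1. In type B cells it was 83.7%, 93.9%, 96.6%, 97% and 93.6% in the same order. All 5 pairs were thus mostly of the kidney type in both types of cell.

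The shares in the next segments differed from pair to pair. In T or NK cells they were 15.3% for Atp6v1b1, 14.3% for Atp6v1c2, 30.9% for Atp6v1g3 and 22.6% for Atp6v0d2. For Atp6v0a4 the T or NK share was 84.7% (73.0 to 92.8), from 59 UMIs of the pair. The shares of Atp6v1g3 and Atp6v0d2 given next lie below those of T or NK cells, so a mix of forms cannot be read from them. Those of Atp6v0a4 lie within the T or NK interval. In connecting tubule or principal cells the kidney-type share was 72.8% (70.8 to 74.8) for Atp6v1b1 and 85.0% for Atp6v0a4, but 24.7% for Atp6v1c2, 23.0% for Atp6v1g3 and 9.06% (7.70 to 10.6) for Atp6v0d2. In the thick ascending limb it was 64.4% for Atp6v1b1, 85.7% for Atp6v0a4, 37.5% for Atp6v1c2, 12.2% for Atp6v1g3 and 17.1% for Atp6v0d2. In the proximal tubule only Atp6v0a4 kept a majority share among the 5 pairs, 88.4% (87.7 to 89.1), while the other 4 kidney-type genes made up 2.1% to 6.64% of their pairs. The share of Atp6v1c2 reached 42.8% (40.1 to 45.5) in the distal convoluted tubule.

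The B subunit was the pair whose share differed most between type A and type B cells. The share of Atp6v1b1 in type A cells was 91.2%, 90.0%, 91.1% and 91.7% in WT-ND and WT-HFD, then SP-ND and SP-HFD. In type B cells it was 81.8%, 82.1%, 82.7% and 87.2%, so each type A value lay above each type B value in the 4 libraries.

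**Figure D2:**
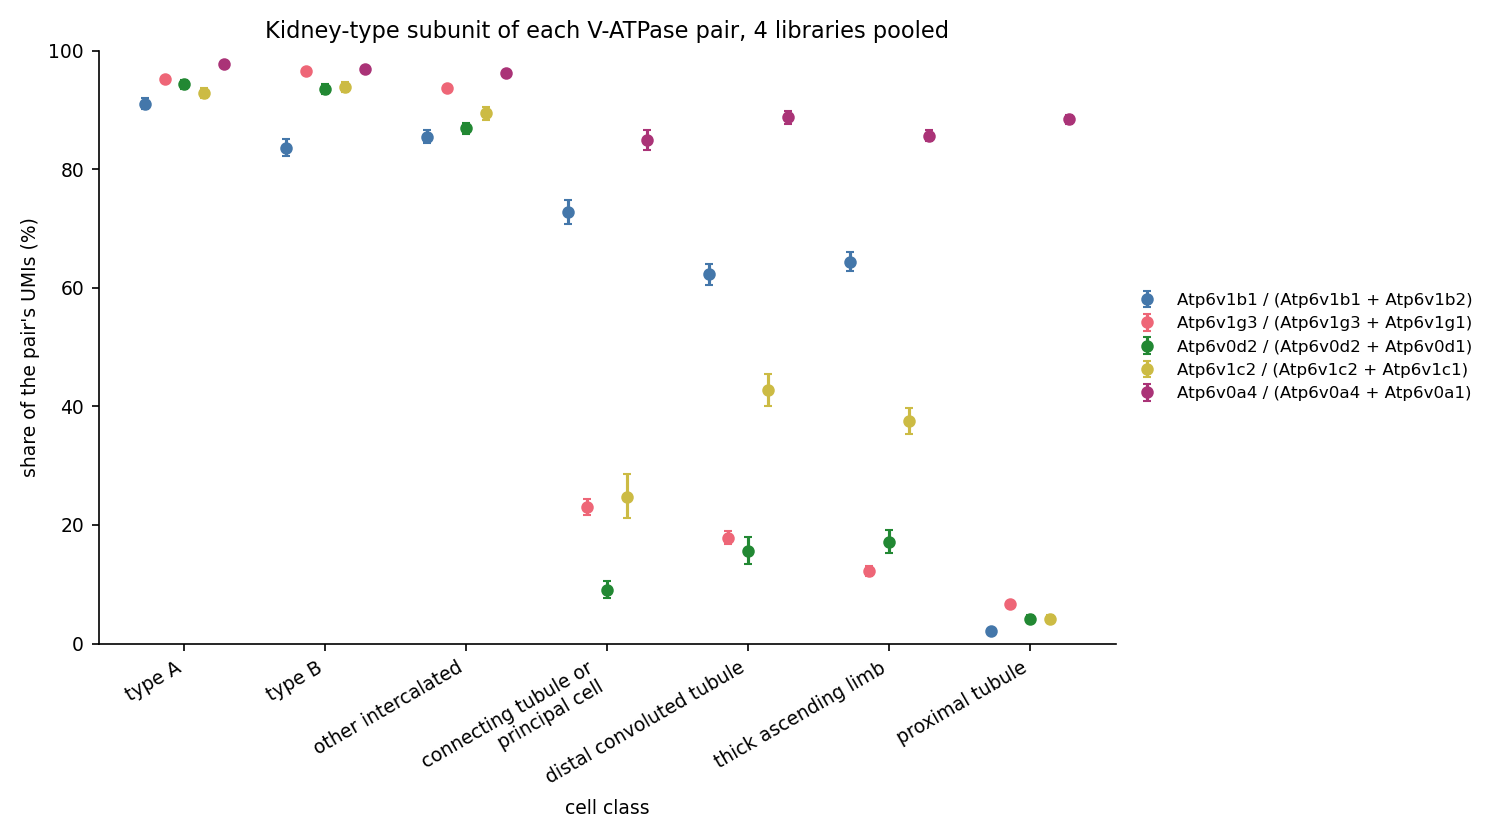
Points give the kidney-type share of each V-ATPase pair's UMIs (percent) in each class of cells over the 4 pooled libraries, with Clopper-Pearson 95% intervals. All 5 shares are 83.7% or more in type A and type B cells, and of the 5 only that of Atp6v0a4 is high (88.4%) in the proximal tubule.

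The partner genes of these pairs were at almost the same level inside and outside intercalated cells. The log2 ratio of intercalated to other cells was 0.01 for Atp6v1b2, -0.03 for Atp6v1c1, -0.25 for Atp6v1g1, 0.03 for Atp6v0a1 and 0.06 for Atp6v0d1. Of the 17 listed V-ATPase genes made in most cells, 10 were at least 2-fold higher in intercalated cells and 1 was at least 2-fold lower, with a median log2 ratio of 1.59. Over all genes tested, 7.76% were higher and 26.4% lower by that rule. Among the 10 were Atp6v1a (2.68), the catalytic subunit, Atp6v0c (2.42), the proton-carrying ring subunit, and Atp6ap2 (2.70), an accessory subunit. The higher pump genes in intercalated cells were therefore the kidney-type members and subunits such as these, and not the 5 partner genes.

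Other acid-base genes showed the same concentration in part, with 11 of 19 measured at least 2-fold higher and 4 at least 2-fold lower in intercalated cells, read against the same 7.76% and 26.4% of all genes. The lower genes included Slc4a4 (log2 ratio -3.34), the sodium bicarbonate cotransporter of the proximal tubule, and Slc4a7 (-1.81), another sodium bicarbonate cotransporter. The regulators Kit (6.18), Dmrt2 (6.19), Insrr (5.88) and Oxgr1 (5.40) were at least 2-fold higher and were among the markers that named the clusters.

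Type A and type B cells shared the pump and Foxi1 and differed in the exchangers and Hmx2. Of the 8 genes that did not name the types, 2 differed by at least 2-fold with the libraries pooled, Hmx2 and Slc4a9, both higher in type B, read against 7.75% of the 9171 genes with enough UMIs. The median log2 ratio of type A to type B was -0.21 over these 8 genes and 0.06 over all genes tested. Because the genes were chosen with earlier results of these data known, the count of 2 of 8 is a description only.

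Hmx2 was nearly absent from type A cells. Its type B level was 1036, 564, 820 and 801 CPM in WT-ND and WT-HFD, then SP-ND and SP-HFD, and its type A level was 16.7, 4.74, 2.20 and 0.516 CPM. The WT-HFD library was the lowest in type B cells, and each of the 4 type A values was far below each type B value. The type A reads were 12, 6, 2 and 1 UMIs from 7, 1, 2 and 1 cells. Pooled, the log2 ratio of type A to type B was -7.56 (-8.25 to -6.95).

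Slc4a9 was lower in type A cells but was read there in every library. It was at 508, 498, 579 and 662 CPM in type B cells and at 241, 111, 160 and 99.5 CPM in type A cells of WT-ND and WT-HFD, then SP-ND and SP-HFD. All 4 type B values lay above all 4 type A values. The pooled log2 ratio was -2.07 (-2.20 to -1.94), and in single libraries it ran from -1.08 (-1.33 to -0.83) in WT-ND to -2.73 (-2.97 to -2.50) in SP-HFD.

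The 2 exchangers that named the types followed their names. Slc4a1 was at 954, 1019, 1006 and 1117 CPM in type A cells of WT-ND and WT-HFD, then SP-ND and SP-HFD, and at 14.4, 0, 37.8 and 14.3 CPM in type B cells. The type B cells of WT-HFD held 0 Slc4a1 UMIs, which allows up to 3.52 CPM. In SP-ND type B cells 38 Slc4a1 UMIs came from 3 cells, 15 of them from 1 cell. Slc26a4 was at 2055, 2107, 2112 and 2083 CPM in type B cells and at 15.3, 49.0, 9.88 and 3.09 CPM in type A cells. Its type B levels thus barely differed between the 4 libraries on this CPM total. With mitochondrial UMIs left out of the total they were 2858, 2839, 3123 and 2747 CPM in the same order. In WT-HFD type A cells 25 of the 62 Slc26a4 UMIs came from 1 cell.

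The pump subunits differed little between the types, each by less than 2-fold. Atp6v1b1 was higher in type A cells in all 4 libraries, at 752, 651, 689 and 687 CPM against 493, 523, 461 and 586 CPM in type B cells. Its pooled log2 ratio was 0.41 (0.33 to 0.49). Atp6v1g3 went the other way in all 4 libraries, at 5614, 5512, 5104 and 5929 CPM in type A and 8218, 8521, 7043 and 8127 CPM in type B cells. Its pooled log2 ratio was -0.50 (-0.53 to -0.48).

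Atp6v1c2 was lower in type A cells in each library, with a pooled log2 ratio of -0.28 (-0.35 to -0.20). Atp6v0a4 had a pooled log2 ratio of 0.03 (-0.03 to 0.10), with levels of 848, 902, 886 and 1054 CPM in type A and 827, 1009, 897 and 1000 CPM in type B cells. For Atp6v0d2 the pooled log2 ratio was -0.10 (-0.17 to -0.04), and the interval held 0 in 3 of the 4 libraries, WT-HFD being the exception at -0.29 (-0.42 to -0.15). The 16 measured V-ATPase genes made in most cells had a median log2 ratio of -0.09 between the types, and 0 of them reached 2-fold.

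For Foxi1 the order of the types differed between libraries. In type A cells it was at 585, 349, 411 and 361 CPM and in type B cells at 471, 503, 317 and 483 CPM in WT-ND and WT-HFD, then SP-ND and SP-HFD. It was higher in type A than in type B cells in both ND libraries, with log2 ratios of 0.31 (0.12 to 0.50) and 0.37 (0.15 to 0.59). It was lower in type A in both HFD libraries, with log2 ratios of -0.53 (-0.72 to -0.33) and -0.42 (-0.58 to -0.25). The pooled log2 ratio of -0.14 (-0.24 to -0.05) is an average over these opposite values.

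**Figure D3:**
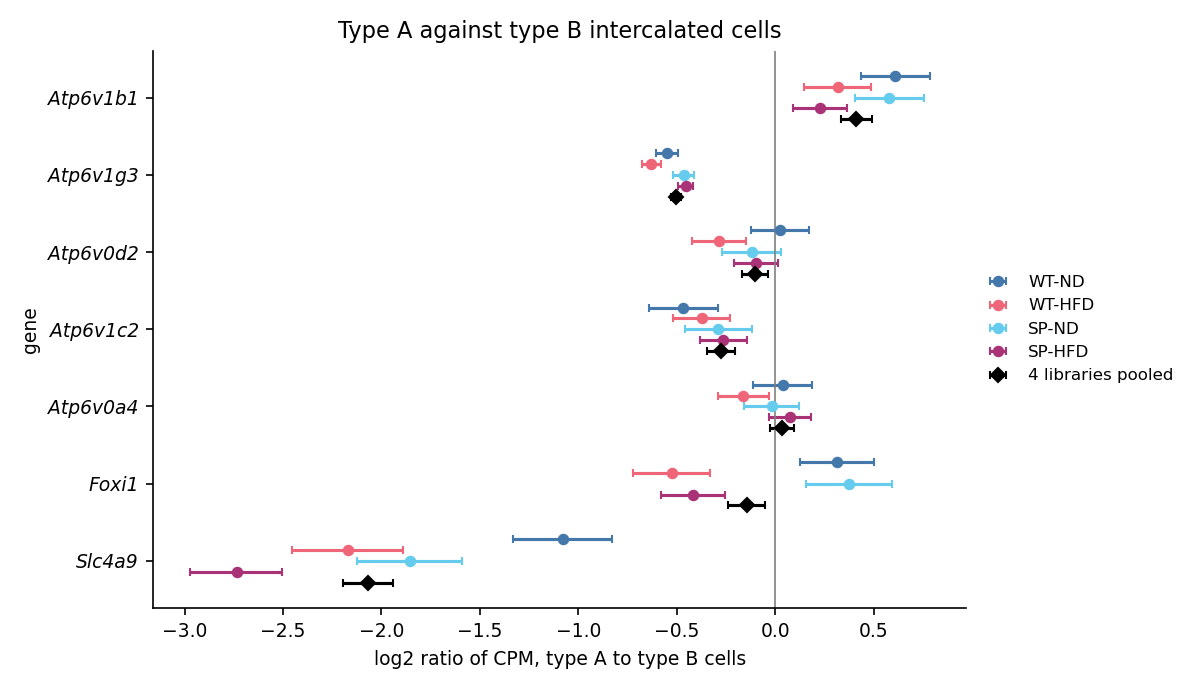
The x axis gives the log2 ratio of CPM in type A to type B cells for 7 genes, with exact 95% counting intervals, for each library (circles) and the 4 pooled (diamonds). Foxi1 lies right of 0 in both ND libraries and left of 0 in both HFD libraries, while Atp6v1b1 lies right of 0 and Atp6v1g3 and Slc4a9 left of 0 in all 4. Slc4a1, Slc26a4 and Hmx2, with pooled ratios of 5.93, -6.84 and -7.56, are off this scale.

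The wider lists gave other genes that separated the types. Slc26a7, a chloride and bicarbonate exchanger, was at 362 CPM in type A and 0.979 CPM in type B cells, the latter from 4 UMIs. Car15, a membrane-bound carbonic anhydrase, was at 204 CPM in type A and 1862 CPM in type B cells, a log2 ratio of -3.19. Insrr, a receptor activated by alkaline medium and a naming marker of type B, had a log2 ratio of -5.59. Oxgr1, also a naming marker of type B, went the other way, at 457 CPM in type A and 295 CPM in type B cells. Of 17 measured acid-base genes outside the 10, 5 were at least 2-fold higher in type A and 3 in type B cells, beside 4.78% and 2.98% of all genes. Hmx3, the neighbour and relative of Hmx2, had 0 UMIs in type A and 60 UMIs in type B cells.

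Each type was made of 2 sub-clusters, which in both types differed in Slc4a9 and in the exchanger that named the type. The larger type A sub-cluster (376 cells, led by Cbr2, Dmrt2 and Kit) had 175 CPM of Slc4a9, 906 CPM of Slc4a1 and 90.1 CPM of Slc26a7. The smaller (96 cells, led by Tnn and Slc26a7) had 7.75 CPM of Slc4a9, 1489 CPM of Slc4a1 and 1224 CPM of Slc26a7. Its Slc4a9 level came from 1, 5, 0 and 3 UMIs in WT-ND and WT-HFD, then SP-ND and SP-HFD. Hmx2 had 21 UMIs in the larger and 0 in the smaller sub-cluster. The Slc4a9 seen in type A cells thus lay almost wholly in the larger sub-cluster.

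The smaller type A sub-cluster supplied 11, 19, 12 and 54 cells in WT-ND and WT-HFD, then SP-ND and SP-HFD and the larger 113, 67, 74 and 122. Foxi1 was alike in both, at 399 and 407 CPM. Atp6v1b1 was at 733 CPM in the larger and 545 CPM in the smaller sub-cluster, and Atp6v0a4 at 968 and 901 CPM.

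In type B cells the larger sub-cluster (227 cells, led by Fetub, Car15 and Rnase1) had 1753 CPM of Slc26a4, 439 CPM of Slc4a9 and 590 CPM of Hmx2. The smaller (101 cells) had 2844 CPM of Slc26a4, 852 CPM of Slc4a9 and 1339 CPM of Hmx2. All 3 genes were higher in the smaller sub-cluster, while Foxi1 was at 445 and 438 CPM. In the smaller sub-cluster Slc26a4 read 2813, 3038, 2770 and 2844 CPM in WT-ND and WT-HFD, then SP-ND and SP-HFD, against 1768, 1830, 1687 and 1722 CPM in the larger. Car15 ran from 9.85 to 124 CPM over the libraries in the smaller sub-cluster and from 2207 to 3231 CPM in the larger.

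The comparisons between libraries ask whether diet or the Slc5a2 mutation went with a change of the transport genes, and each sets 1 library against 1. In type A cells 2 of the 9 genes with enough UMIs, Slc4a9 and Slc26a4, differed by at least 2-fold between WT-HFD and WT-ND, against 3.2% of all genes, and 0 of 8 between SP-HFD and SP-ND (2.65% of all genes). The call of Slc4a9 ended under 3 of 9 alternatives, which are calling types from each cell's own UMIs (-0.94), averaging over cells (-0.96) and keeping the larger sub-cluster alone (-0.97). In the same cells 0 of 8 reached 2-fold between SP-ND and WT-ND (1.5% of all genes). Between SP-HFD and WT-HFD 1 of 9 did, Slc26a4 (1.18% of all genes). Slc26a4 had enough UMIs only in the comparisons with WT-HFD, through 62 UMIs there against 11 in WT-ND and 6 in SP-HFD. Between SP-HFD and SP-ND it held 6 and 9 UMIs and was left out. The counts out of 9 and out of 8 therefore do not cover the same genes. The medians of the genes were -0.03, 0.18, -0.13 and 0.11 on the log2 scale in these 4 comparisons, beside 0.02, 0.09, -0.05 and 0.04 over all genes. These comparisons share libraries and are not independent of each other.

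Slc4a9 was the gene whose type A level was lower in HFD than in ND libraries in both genotypes by the widest margin among the genes with enough UMIs. For WT-HFD over WT-ND its log2 ratio was -1.12 (-1.45 to -0.79), and for SP-HFD over SP-ND it was -0.69 (-1.01 to -0.37). Within the larger type A sub-cluster, Slc4a9 was at 269 CPM on ND and 137 CPM on HFD in WT and at 203 and 143 CPM in SP mice, so both HFD values again lay below both ND values. Between genotypes the log2 ratio was -0.59 (-0.91 to -0.26) on ND and -0.15 (-0.47 to 0.17) on HFD.

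Foxi1 was highest in type A cells of WT-ND at 585 CPM (531 to 644), and its intervals in the other 3 libraries lay below that. Set against WT-ND, the log2 ratio of Foxi1 was -0.75 (-0.94 to -0.55) for WT-HFD and -0.51 (-0.72 to -0.31) for SP-ND, and that of SP-HFD over SP-ND was -0.18 (-0.37 to 0.00). With mitochondrial UMIs left out of the total, these ratios were -0.76 (-0.95 to -0.56), -0.41 (-0.61 to -0.20) and -0.33 (-0.51 to -0.14), the last now clear of 0. In the larger type A sub-cluster it was at 593, 362, 401 and 332 CPM in WT-ND and WT-HFD, then SP-ND and SP-HFD. The WT-ND type A cells were also the shallowest, with a median of 4875.5 UMIs against 9769 to 14564 in the other libraries, and their summed level of 7 proximal tubule markers was 558 CPM against 134 to 183 CPM. Other marker lists differed in direction. Those same WT-ND cells had the lowest summed level of the 4 libraries for connecting tubule or principal cells (332 CPM against 426 to 711). They were also lowest for thick ascending limb (209 against 284 to 489) and distal convoluted tubule (311 against 407 to 474). They were highest for proximal tubule S3 (54.2 CPM against 8.78 to 13.9) and for mesangial, mural cells or fibroblasts (29.2 against 8.25 to 11.0). For thin limb they read 567 CPM, between 384 CPM in SP-ND and 678 CPM in WT-HFD. The part of depth and of RNA of other cells in these differences was not tested. Genes of red blood cells were near 0 in type A cells, with haemoglobin and Alas2 UMIs at 0 in 3 of the 4 libraries. Markers of macrophages or dendritic cells summed to 57.0, 36.3, 74.7 and 68.1 CPM in type A cells of WT-ND and WT-HFD, then SP-ND and SP-HFD. Igkc, an immunoglobulin gene, was at 52.8 CPM in the larger and 84.4 CPM in the smaller type A sub-cluster.

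The pump subunits differed by less in type A cells. Between WT-HFD and WT-ND the log2 ratio was 0.30 (0.12 to 0.47) for Atp6v1c2, -0.21 (-0.37 to -0.05) for Atp6v1b1 and -0.16 (-0.31 to -0.02) for Atp6v0d2. Between SP-HFD and SP-ND it was 0.39 (0.25 to 0.54) for Atp6v1c2, 0.25 (0.13 to 0.37) for Atp6v0a4 and 0.22 for both Atp6v0d2 and Atp6v1g3. The mitochondrial share of type A UMIs was 30.4% in SP-ND and 23.2% in SP-HFD, and with mitochondrial UMIs left out of the total these ratios were 0.25 (0.11 to 0.40) for Atp6v1c2, 0.11 (-0.01 to 0.23) for Atp6v0a4, 0.08 (-0.05 to 0.21) for Atp6v0d2 and 0.07 (0.03 to 0.12) for Atp6v1g3. On either scale Atp6v1c2 was the subunit higher in the HFD library of both genotypes with an interval clear of 0 in each. Slc4a1 had log2 ratios of 0.10, 0.15, 0.08 and 0.13 in the 4 comparisons of type A cells, in the order given above. The 2-fold differences of Slc26a4 in type A cells (1.68 between WT-HFD and WT-ND, -3.98 between SP-HFD and WT-HFD) rest on 62 UMIs in 8 cells of WT-HFD.

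In type B cells 0 of 9 genes differed by at least 2-fold between WT-HFD and WT-ND (2.86% of all genes) and 0 of 9 between SP-HFD and WT-HFD (1.65%). Slc4a1 alone of 10 did so between SP-HFD and SP-ND (2.43%) and between SP-ND and WT-ND (1.22%), from the 38 UMIs in 3 SP-ND cells given above. Slc4a1 had enough UMIs only through SP-ND and was left out of the 9 in both comparisons with WT-HFD. Without integration both 2-fold calls of Slc4a1 ended (-0.41 and 0.73), and in the larger sub-cluster alone the first did (-0.95). Slc26a4 itself had log2 ratios of 0.04, -0.02, 0.04 and -0.02 in the 4 comparisons, all with intervals that held 0. With mitochondrial UMIs left out, the Slc26a4 ratio of SP-HFD to SP-ND became -0.19 (-0.27 to -0.10) and that of SP-ND to WT-ND 0.13 (0.04 to 0.21).

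Hmx2 and Foxi1 were the type B genes with the widest differences after Slc4a1. Hmx2 was lower in WT-HFD than in WT-ND, with a log2 ratio of -0.88 (-1.03 to -0.72), and the difference between SP-HFD and SP-ND was -0.03 (-0.17 to 0.11), or -0.20 (-0.34 to -0.06) with mitochondrial UMIs left out. The lower WT-HFD level held in both type B sub-clusters, at 471 CPM in the larger and 875 CPM in the smaller of WT-HFD against 742 and 1812 CPM in WT-ND. The smaller sub-cluster held only 13 cells of WT-HFD and 29 of WT-ND. Foxi1 was lowest in SP-ND at 317 CPM (283 to 354), with a log2 ratio of -0.57 (-0.78 to -0.37) to WT-ND, and 0.61 (0.41 to 0.81) from SP-ND to SP-HFD. With mitochondrial UMIs left out these were -0.48 (-0.69 to -0.28) and 0.44 (0.24 to 0.65). Slc4a9 was 0.41 (0.24 to 0.59) higher in SP-HFD than in WT-HFD on the log2 scale.

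Whether the pump subunits in type B cells were higher in the HFD library of SP mice depended on the CPM total. The log2 ratios of SP-HFD to SP-ND were 0.37 for Atp6v1c2, 0.35 for Atp6v1b1, 0.21 for Atp6v1g3, 0.20 for Atp6v0d2 and 0.16 for Atp6v0a4, each with an interval clear of 0. The median over all genes in that comparison was 0.16, and the mitochondrial share of type B UMIs was 32.4% in SP-ND and 24.2% in SP-HFD. With mitochondrial UMIs left out, Atp6v1c2 (0.20, 0.06 to 0.35) and Atp6v1b1 (0.18, 0.01 to 0.36) stayed clear of 0, while the intervals of Atp6v1g3 (0.04), Atp6v0d2 (0.03) and Atp6v0a4 (-0.01) held 0. Between WT-HFD and WT-ND the 5 ratios ran from 0.05 to 0.29.

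**Figure D4:**
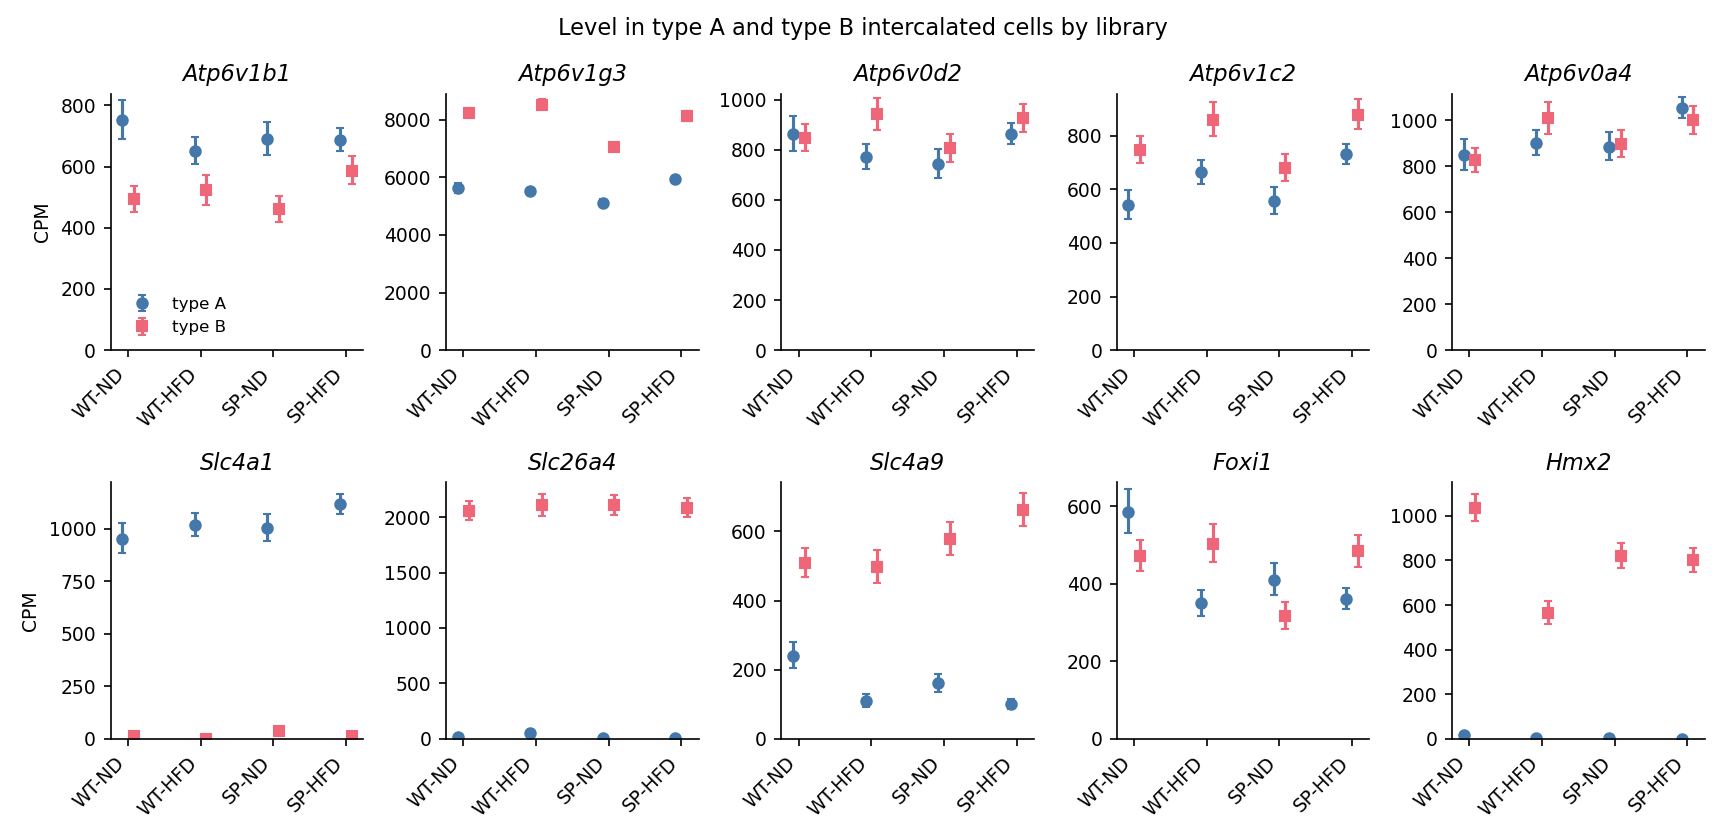
Each panel plots the CPM of a gene (y axis from 0) in type A (circles) and type B cells (squares) of the 4 libraries, with exact Poisson 95% intervals. Slc26a4 in type B cells stays between 2055 and 2112 CPM, Slc4a9 in type A cells is lower in both HFD libraries, and Foxi1 is highest in type A cells of WT-ND.

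The shares of type A and type B cells differed between libraries. For WT mice, type A cells made up 1.25% (1.04 to 1.49) of the cells kept on ND and 0.961% (0.770 to 1.19) on HFD, and for SP mice 1.35% (1.08 to 1.66) on ND and 2.51% (2.15 to 2.90) on HFD. Type B cells were 1.04% (0.848 to 1.26), 0.682% (0.522 to 0.875), 0.955% (0.731 to 1.22) and 1.47% (1.20 to 1.78) in the same order. SP-HFD was the highest and WT-HFD the lowest library for both types. The kept cells that these shares divide by also differed between libraries. Barcodes with 50% or more mitochondrial UMIs were 32.7%, 33.2%, 49.8% and 42.1% of all barcodes in the same order. An unnamed cluster led by haemoglobin genes held 1573, 838, 380 and 364 kept cells. The part of these differences in the shares was not tested. In the integrated clustering, intercalated cells without a type were most frequent in WT-HFD, at 371 of 518 intercalated cells. Of these, 187 fell in the sub-cluster led by immunoglobulin genes, which held 214 cells in all. A further 59 made up the whole of a sub-cluster led by Ccl5 and Pvalb. Type A cells made up 54.6%, 58.5%, 58.5% and 63.1% of type A and type B cells together, and all 4 intervals overlapped. Without integration the intercalated cluster held 504, 280, 301 and 435 cells in WT-ND and WT-HFD, then SP-ND and SP-HFD. Its largest sub-cluster without a type held 113, 58, 94 and 62 cells in that order. Over all sub-clusters without a type, WT-HFD was then no longer the highest library.

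**Figure D5:**
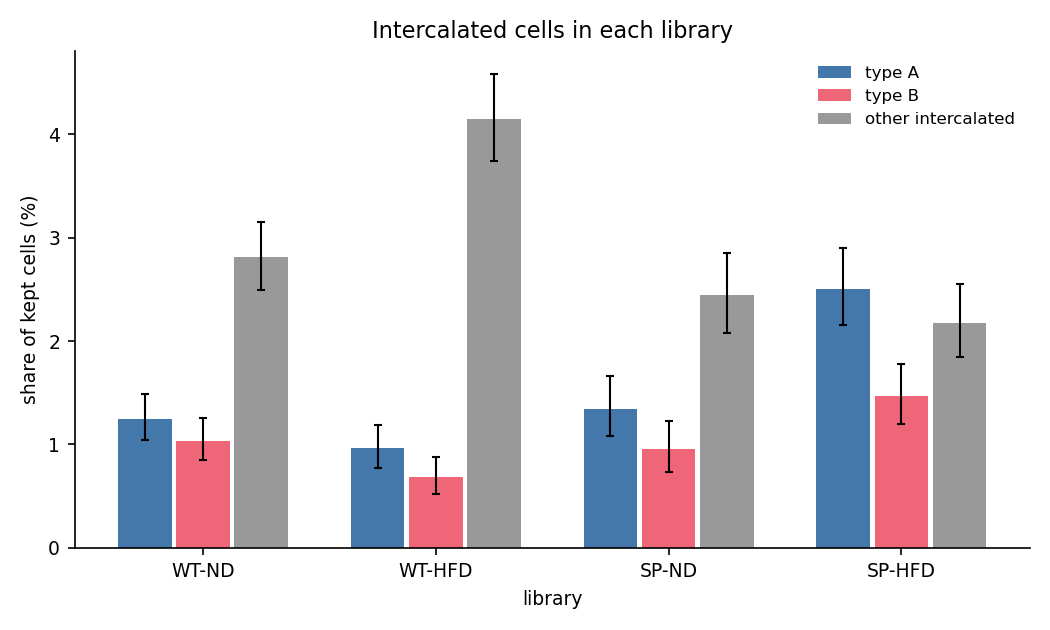
Bars (y axis from 0) give the share of kept cells in percent that were type A, type B or other intercalated cells in each library, with Clopper-Pearson 95% intervals. SP-HFD has the highest share of type A cells (2.51%), and WT-HFD the highest share of intercalated cells without a type (4.15%). Without integration WT-HFD was not the highest library for intercalated cells without a type.

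Over all kept cells of a library, fewer cells of a type and less RNA per cell cannot be told apart. Of the 10 genes, 8 were highest in SP-HFD, the library with the largest shares of both type A and type B cells. Hmx2 and Slc26a4 were highest in WT-ND. For Slc26a4 the WT-ND interval (75.6 to 80.5 CPM) overlapped that of SP-HFD (74.7 to 79.9 CPM). Slc4a1 was at 29.0, 40.0, 33.0 and 66.6 CPM in WT-ND and WT-HFD, then SP-ND and SP-HFD. It was the only one of the 10 with a 2-fold difference between SP-HFD and SP-ND (log2 ratio 1.01, 0.92 to 1.10), against 4.5% of all genes, whereas within type A cells its log2 ratio was 0.15. With mitochondrial UMIs left out of the total the difference over all kept cells was 0.90 (0.81 to 0.99), under 2-fold. Atp6v1g3 was at 462, 553, 413 and 652 CPM, with SP-HFD again the highest library. All 10 genes were higher in SP-HFD than in SP-ND, with a median log2 ratio of 0.54, beside 0.08 over all genes. Without mitochondrial UMIs the intervals of Slc26a4 (0.00) and Hmx2 (0.06) held 0. Between WT-HFD and WT-ND none of the 10 reached 2-fold (4.12% of all genes), and Hmx2 was the farthest at -0.76 (-0.86 to -0.65). Between genotypes none of the 10 reached 2-fold on ND (3.01% of all genes) or on HFD (2.37%).

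Genes with a like pattern were sought over 61 units of class and library by Pearson's r of log2(CPM + 1), among 7885 genes. Units of 1 library share its free RNA and those of 1 class its depth, so r is a description. With the mean of the 5 pump subunits the highest were Tmem151b (0.965), Cpsf4l (0.952), Oxgr1 (0.949), Guca2a (0.919), Rorb (0.919), Cyp1a1 (0.916), Avpr1a (0.915) and Klkb1 (0.911). Oxgr1, the receptor for 2-oxoglutarate and a naming marker of type B, was at 457 CPM in type A, 295 CPM in type B and 7.87 CPM in other cells. Avpr1a, a vasopressin receptor, was at 129, 168 and 1.97 CPM in the same order. With Slc4a1 the highest were Dmrt2 (0.936), Aqp6 (0.927), 2610016A17Rik (0.907), Kit (0.851) and Cbr2 (0.843), of which Dmrt2, Aqp6 and Kit had named type A. With Slc26a4 they were Rnase1 (0.882), Aldh1l2 (0.876), 4930469K13Rik (0.850), Insrr (0.840) and Sh2d4b (0.838), of which Insrr had named type B. 4930469K13Rik had 0 UMIs in type A cells and 51.7 CPM in type B cells.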

How the data were processed

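Whole-kidney cells of 4 conditions, 1 library each, were measured by single-cell RNA-Seq. The authors deposited UMI counts per gene and barcode, without normalization. The file headers name Cell Ranger 6.1.2, and the submitters' processing notes name Cell Ranger 2.1.1 and build mm10. The study's supplement names a SoupX correction for ambient RNA, and the sources used here do not say whether the deposited counts, which are whole numbers, carry it. All columns of samples were used.

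Kept barcodes had 200 to 5000 detected genes and less than 50% of UMIs from the mitochondrial genome, and the 0.8% per 1000 cells with the highest doublet score (simulated doublets among 50 neighbours) were removed. Cells were integrated by CCA on 2000 features, without the 10 genes, and clustered on 50 principal components at resolution 0.5 into 35 clusters (R 4.3.3, Seurat 5.3.0). The 1759 cells of the intercalated clusters were clustered again on 20 components. A cluster took the class whose markers had the highest mean log2 ratio, if at least 1 with at least 3 markers detected (0.5 for sub-clusters of type A or type B). It also needed a marker of that class among its 30 leading genes, and no more markers of another class than of its own among the first 10. A cluster shallow for its library needed at least 3 of its own markers among those 10. Sub-clusters had limits on depth and on markers of other classes among their 10 leading genes. These naming thresholds were chosen with the clusters in view.

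Python 3.11.15 with numpy 2.4.6, scipy 1.17.1 and pandas 2.3.3 gave pooled CPM with exact Poisson intervals, log2 ratios with exact conditional binomial intervals, and shares with Clopper-Pearson intervals, at 95%. Limits for a count of 0 use 3 counts. Interval code was tested on simulated data. With 1 library per condition no test between conditions was run. Cell Ranger's filtered barcodes, depths and the precision they give are in the text.

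The genes named are the 10, fixed lists of 17 V-ATPase genes made in most cells, 20 other acid-base genes and 10 regulators, and the genes of like pattern (at least 50 CPM in a unit of at least 20 cells, the 8 highest r for the pump subunits and the 5 highest for each exchanger). Others, such as the leading genes of sub-clusters, were chosen after their values were seen. The 10 genes and the lists were chosen with earlier results of these data known. Upstream sequences are from RefSeq, build GRCm38.p6. The alternatives are the limits on mitochondrial UMIs, depth and doublets, clustering without integration, types called from each cell's own UMIs, the CPM denominator, the pooling, an ambient subtraction and all barcodes.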

Additional observations from a re-analysis of the deposited data

Results flagged for a closer look

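The diet ratio of Atp6v0d2 in type A cells had opposite signs in the 2 genotypes. For WT-HFD over WT-ND its log2 ratio was -0.1635 (interval -0.31 to -0.02), and for SP-HFD over SP-ND it was 0.2182 (0.09 to 0.35). With mitochondrial UMIs left out of the total, the ratio for SP mice was 0.08 (-0.05 to 0.21), an interval that holds 0, and that for WT mice was -0.18 (-0.32 to -0.03). Each sign rests on 1 library per condition, and the difference between genotypes was not tested.

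The barcodes removed for 50% or more mitochondrial UMIs, which no comparison uses, also held the 10 genes. Their summed level there was 700.1, 698.9, 611.3 and 811.2 per 1000000 UMIs outside the mitochondrial genome in WT-ND and WT-HFD, then SP-ND and SP-HFD. A count of 0 would allow 0.369, 0.325, 0.246 and 0.355 in the same order. A level above that limit does not say which cells the RNA came from, and the part of free RNA was not tested. In kept cells the summed level was 1364, 1481, 1331 and 1800 on the same scale. SP-HFD was the highest library among removed and kept barcodes alike.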

How the results depend on the processing

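No direction of a difference past 2-fold turned under an alternative that gave it a value. With types called from each cell's UMIs, Slc4a1 and Slc26a4 had no value between the types or where 1 of them passed 2-fold between libraries, and with ambient RNA subtracted Slc26a4 had none in type A cells of SP-HFD to WT-HFD. The 10 genes past 2-fold in intercalated cells and the 2 of 8 past 2-fold between the types stayed at 10 and 2 under every alternative run for them. The sizes were less fixed. The ratio to other cells was marked as moved for all 10 genes with 1.6% doublets per 1000 cells or ambient RNA subtracted, and for 9 when averaged over cells. With types by each cell's UMIs, 41 ratios between libraries within a type moved and 27 did not, and the shares of both types moved in all 4 libraries. Calling the types from each cell's own Slc4a1 and Slc26a4 UMIs gave 736 type A and 665 type B cells in place of 472 and 328, and a limit of 30% mitochondrial UMIs gave 196 type B cells. Types by each cell's UMIs put the median log2 ratio of the genes in type A cells at 0.13 (WT-HFD to WT-ND), 0.44 (SP-HFD to SP-ND) and 0.28 (SP-HFD to WT-HFD), and in type B cells at -0.23 (WT-HFD to WT-ND) and 0.44 (SP-HFD to WT-HFD). The SP-HFD to SP-ND median was 0.0425 in type A and 0.0305 in type B cells with CPM over UMIs outside the mitochondrial genome, and 0.0621 in type A cells under 30% mitochondrial UMIs. The cause was not tested. The type A ratio of WT-HFD to WT-ND ran from -0.96 to -0.51 for Foxi1 and from -1.32 to -0.94 for Slc4a9, and the type B ratio of Hmx2 from -0.94 to -0.65. Restricting each type to its larger sub-cluster was chosen after seeing the data. No paired analysis was possible because each condition has 1 library. Depth limits Hmx2 and Slc26a4 in type A and Slc4a1 in type B cells, where a few UMIs of single cells set the values.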

Other observations

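Car15, the carbonic anhydrase with a log2 ratio of type A to type B cells of -3.19, was higher in type A cells of both HFD libraries. Its type A level was 57.0 CPM (40.9 to 77.3) in WT-ND, 228 CPM (203 to 256) in WT-HFD, 51.6 CPM (37.9 to 68.6) in SP-ND and 314 CPM (290 to 340) in SP-HFD. Both HFD values lay above both ND values, with log2 ratios of 2.00 and 2.61. Without the type A cells that held a Slc26a4 UMI the levels were 58.0, 197, 45.1 and 321 CPM. The larger type A sub-cluster carried the difference, at 56.2, 273, 48.6 and 439 CPM, while the smaller read 63.5, 68.3, 62.9 and 42.4 CPM. Car2, the cytosolic carbonic anhydrase, was also higher in type A cells of HFD libraries, at 2379, 3823, 2312 and 3551 CPM in WT-ND and WT-HFD, then SP-ND and SP-HFD.

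Kit, a growth factor receptor and naming marker of type A cells, was at 1064, 525, 755 and 543 CPM in the type A cells of WT-ND and WT-HFD, then SP-ND and SP-HFD. Slc26a7 was at 84.8, 259, 301 and 561 CPM in the same order, and the smaller type A sub-cluster, which held most of it, supplied 11 of 124, 19 of 86, 12 of 86 and 54 of 176 type A cells. Within the larger type A sub-cluster Slc26a7 was at 45.3, 46.6, 59.7 and 161 CPM.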
